A study of Mus musculus with 12 samples.

Results

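The 10 genes described here encode proteins that make and use microRNAs: *Hp1bp3*, *Drosha*, *Dgcr8*, *Ddx5*, *Ddx17*, *Xpo5*, *Dicer1*, *Tarbp2*, *Ago1* and *Ago2*. They were chosen by name as the processing machinery, with *Hp1bp3* added because the study links its protein to YTHDC1, and all 10 were found among the 55335 genes of the count table. The RNA came from HSCs sorted from mouse bone marrow of the C57B6 strain. The *Ythdc1*Δ/Δ mice carried *Ythdc1* fl/fl and Mx1-Cre and the *Ythdc1*+/+ mice carried Mx1-Cre alone, and both received pIpC, at 5 injections of 300 μg by the study's methods, which give an age of 8 weeks. Mx1-Cre is an interferon-induced recombinase that is active in many cells beside HSCs, so deletion was not limited to them. Polyadenylated RNA of 12 libraries was sequenced, 2 under each of 6 title numbers, and the pair under a number was summed. The *Ythdc1*Δ/Δ samples are KO176, KO177 and KO209, and the *Ythdc1*+/+ samples are WT178, WT180 and WT207. What a number stands for is not given, and it may not be a mouse, so the p-values rest on a spread between samples that could be technical.

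A microRNA is first transcribed as part of a long primary transcript. In the nucleus the Microprocessor, the RNase III enzyme DROSHA with its RNA-binding partner DGCR8, cuts out a hairpin, helped at some transcripts by the helicases DDX5 and DDX17 and by the chromatin protein HP1BP3. Exportin 5, encoded by *Xpo5*, carries the hairpin to the cytoplasm, where DICER1 and its partner TRBP, encoded by *Tarbp2*, cut it to a duplex, and an Argonaute protein holds 1 strand and uses bases 2 to 8, the seed, to find target mRNAs. The study asks how YTHDC1, a nuclear reader of m6A, acts on this process in HSCs. The libraries measured the mRNAs of these proteins and not the microRNAs themselves.

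Some of these genes also contain microRNA hairpins, shown here because those in counted exons take bases of the gene out of the count. Coordinates are of GRCm38 (mm10), sequences are from RefSeq (GRCm38.p6), and capitals mark the mature arms. The exons of *Dgcr8* (ENSMUSG00000022718.12, chr16:18253948-18289246, minus strand) hold miR-1306 in a coding exon (chr16:18284239-18284317) and miR-3618 in an exon of the 5′ UTR (chr16:18284550-18284637). The miR-3064 hairpin lies within *Ddx5* (chr11:106782693-106782759, minus strand), in an intron of the transcript with the longest coding part and in an exon of the annotation used for counting. The miR-693 hairpin lies in an intron of *Xpo5* (chr17:46231531-46231619, plus strand).
Mir1306 hairpin in *Dgcr8*: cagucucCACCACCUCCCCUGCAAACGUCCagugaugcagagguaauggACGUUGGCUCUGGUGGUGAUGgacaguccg
Mir3064 hairpin in *Ddx5*: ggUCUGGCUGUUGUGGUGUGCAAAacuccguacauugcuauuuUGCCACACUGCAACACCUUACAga
Mir693 hairpin in *Xpo5*: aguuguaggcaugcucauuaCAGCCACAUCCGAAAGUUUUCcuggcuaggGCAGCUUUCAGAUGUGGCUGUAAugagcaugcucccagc
The mature arms of miR-3618 follow with the seed in capitals.
miR-3618-5p: uGUGAUUUccaauaauugaggc
miR-3618-3p: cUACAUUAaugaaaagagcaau
The gene entries of miR-1306, miR-3618 and miR-3064 were listed at 0 counts in all 12 libraries. Reads that fall on exons of more than 1 gene were not assigned to any, so these zeros say nothing about the level of the hairpins.

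The study names let-7e, miR-99b, miR-125a and miR-125b, whose mature sequences are shown for the seeds that the Argonaute complexes would use, with the seed in capitals. The seed of miR-125a and miR-125b is the same.
let-7e-5p: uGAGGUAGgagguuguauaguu
miR-99b-5p: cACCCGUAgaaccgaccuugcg
miR-125a-5p: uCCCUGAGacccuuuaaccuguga
miR-125b-5p: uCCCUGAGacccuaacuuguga
The 3′ UTRs of the 10 genes were searched, on the mRNA strand, for the letters CTACCTC (let-7e), TACGGGT (miR-99b) and CTCAGGG (miR-125a and miR-125b), in the GENCODE vM21 transcript with the longest coding part. *Ago2* held 3 let-7e matches, 2 miR-125 matches and 1 miR-99b match in a 3′ UTR of 11064 bases, *Dicer1* held 1 miR-125 match in 3851 bases, and *Tarbp2* held 1 let-7e match in 334 bases. The other 7 genes had none. Among 3′ UTRs within 20% of the same length, 45.3%, 50.9% and 7.55% of 53 held the let-7e, miR-125 and miR-99b motifs at least once for *Ago2*, 30.7% of 1064 held the miR-125 motif at least once for *Dicer1*, and 3.07% of 1140 held the let-7e motif at least once for *Tarbp2*. These are matches of letters, shown with the match in capitals and its position counted from the first base of the 3′ UTR. The *Ago2* let-7e matches at 5177, 6861 and 8919 and its miR-125 match at 6372 are not printed.
*Tarbp2* let-7e match at 102: gaggtgccatctCTACCTCtgacacag
*Dicer1* miR-125 match at 2077: cgttcatccattCTCAGGGctcaaatg
*Ago2* miR-125 match at 308: agtctatgaactCTCAGGGctttaaaa
*Ago2* miR-99b match at 768: gtttctaaagaaTACGGGTctgtggtg

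In *Ythdc1*Δ/Δ HSCs none of the 10 mRNAs passed the test, and their differences were small. The test was edgeR's quasi-likelihood test of 3 samples against 3 over 18234 genes, with p-values adjusted by the Benjamini-Hochberg method, and 0 of the 10 had an adjusted p under 0.05, against 0.137% of all tested genes (25 genes). At an unadjusted p under 0.05 there was 1 gene, *Xpo5*, against 9.48% of all tested genes. After TMM scaling the 3 samples of each genotype did not overlap for 2 of the 10, *Xpo5* higher and *Ago1* lower, against 16.3% of all tested genes in either direction. On the log2 scale 5 of the 10 were higher and 5 lower (6 higher with RLE scaling, where *Tarbp2* was at 0.0018, 8 without KO176, 7 without WT207 and 4 without WT178), with a median of 0.01 (all tested genes, -0.01), and the largest size was 0.32. The 95% interval of the fold change lay within 1.5-fold in both directions for 9 of the 10 and within 2-fold for all 10, where 45.9% of all tested genes had an interval within 1.5-fold.

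**Figure D1:**
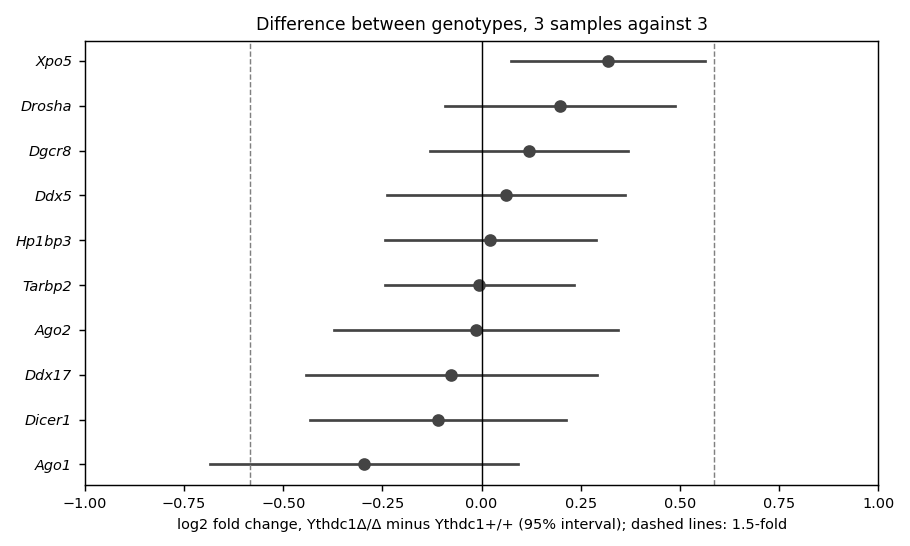
Log2 fold change of each gene (horizontal axis, *Ythdc1*Δ/Δ minus *Ythdc1*+/+) with its 95% interval from edgeR's quasi-likelihood fit, for 3 samples against 3. The dashed lines mark 1.5-fold, the interval of *Xpo5* alone leaves out 0, and the interval of *Ago1* alone passes the lower dashed line.

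Total counts were 20809936 to 24563170 per library, and single libraries held between 134 counts (*Ago1*) and 57732 counts (*Ddx5*) for a gene of the 10. *Ythdc1*, the deleted gene, was at 65.3 ± 7.37 CPM (a gene's counts as a proportion of the sample's total after TMM scaling; SD over 3 samples) in *Ythdc1*Δ/Δ HSCs, against 80.4 ± 10.7 CPM in *Ythdc1*+/+ HSCs. Its log2 fold change was -0.30 (SE 0.13, unadjusted p = 0.0487, adjusted p = 0.521 from edgeR), so the deleted gene did not pass the test either. Since all its exons were counted, also those outside the deleted part, this level is no check of the labels. How complete the deletion was in these samples was not tested. The marker levels that follow are CPM without TMM scaling. All 8 HSC markers were detected, and their summed level was 777 to 845 CPM in the *Ythdc1*Δ/Δ samples, below the 1001 to 1132 CPM of *Ythdc1*+/+, with 7 of 8 lower and 0 called. Summed levels were higher in every *Ythdc1*Δ/Δ sample for 8 B cell markers (1410 to 3096 against 690 to 897 CPM, 7 of 8 higher), 8 granulocyte genes (12430 to 18823 against 10313 to 12420 CPM, 8 of 8, a gap so small that it depends on the scaling) and 7 stromal and endothelial genes (19.7 to 32.1 against 4.70 to 10.4 CPM, 6 of 6 tested, with 3 called). The same held for 4 macrophage genes (29.5 to 35.3 against 15.8 to 26.9 CPM, 4 of 4) and 8 cell division genes (1073 to 1246 against 854 to 943 CPM, 8 of 8), while 5 erythroid genes (27 to 41.7 against 22.8 to 38.4 CPM) and 3 genes of T and NK cells (506 to 678 against 614 to 731 CPM) overlapped. Without the most abundant gene of each list, a comparison chosen after the values were seen, the B cell sum (without *Ighm*, 111 to 128 against 114 to 121 CPM) overlapped, and so did the HSC (without *Ly6a*), granulocyte (without *Mpo*), macrophage (without *C1qb*) and erythroid (without *Hba-a1*) sums, while the stromal and cell division sums still did not. The T and NK cell sum was almost all *Nkg7*, and without it was 0.687 to 0.871 against 0.451 to 0.832 CPM, which also overlapped. No listed gene was at 0 in all libraries, and *Pax5* (0.239 CPM), *Cdh5* (0.172 CPM) and *Cd3e* (0.153 CPM) had the lowest means of the B cell, stromal and T cell lists. Their part in the results below was not tested, and in bulk RNA fewer cells of a type and less RNA per cell cannot be told apart.

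The levels per exon length, as FPKM (counts relative to the exon length and to the sample's total after TMM scaling, computed here), spanned from *Ddx5* to *Ago1*. *Ddx5* was at 342 to 407 FPKM over the 6 samples, higher than 99.4% of the tested genes, and *Hp1bp3* followed at 29.3 to 34.6 FPKM, higher than 87.3%. *Tarbp2* (13.7 to 16.2 FPKM) and *Xpo5* (6.67 to 9.38 FPKM) came next. These 4 genes did not overlap with their neighbours in the order. *Drosha* was at 4.03 to 5.51 FPKM, *Ddx17* at 3.15 to 4.91 FPKM and *Dgcr8* at 3.33 to 3.88 FPKM, and these 3 overlapped, with *Drosha* above *Ddx17* in 5 of 6 samples and *Ddx17* above *Dgcr8* in 5 of 6. *Ago2* was at 2.11 to 3.17 FPKM and did not overlap with *Dgcr8* above it or *Dicer1* below it. *Dicer1* (1.29 to 1.83 FPKM) and *Ago1* (0.892 to 1.53 FPKM) overlapped in range, although *Dicer1* was above *Ago1* in 6 of 6 samples. *Ago1* was higher than 37.1% of the tested genes. The exon length counts all annotated isoforms together, so a gene with long alternative ends has a lower FPKM than its main isoform alone would give. It also counts bases shared with other genes, where reads were left out. These were 17.1% of the exon bases of *Dgcr8*, 1.21% of *Drosha* and 0.05% of *Ddx17*. The FPKM of *Dgcr8* is thus too low beside the other 2, and its place below *Ddx17* may depend on this.

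**Figure D2:**
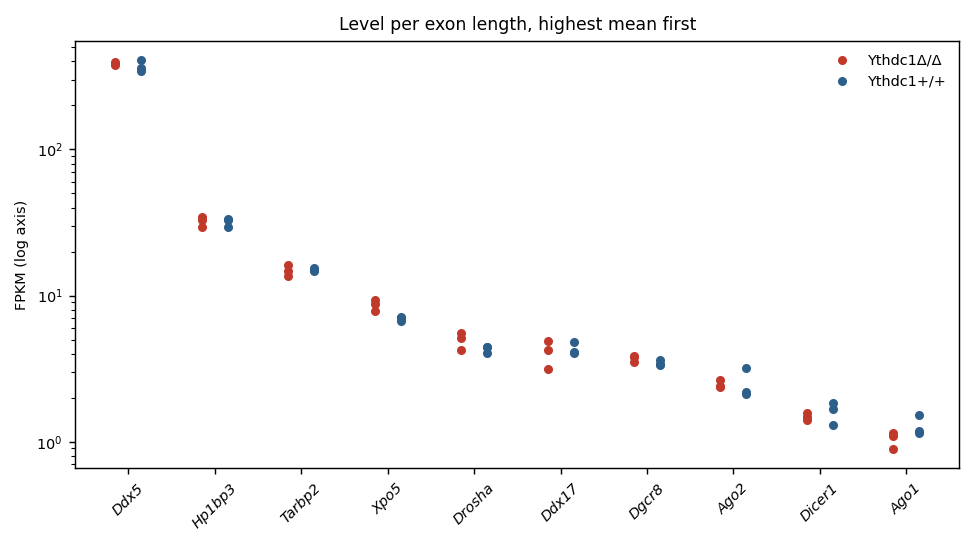
FPKM (vertical log axis) of the 10 genes, ordered by their mean over 6 samples (horizontal axis), each point 1 summed sample, red for *Ythdc1*Δ/Δ and blue for *Ythdc1*+/+. *Ddx5* stands at 342 to 407 FPKM, *Drosha*, *Ddx17* and *Dgcr8* overlap between 3.15 and 5.51 FPKM, and *Ago1* is lowest.

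*Hp1bp3* (ENSMUSG00000028759.13, chr4:138216296-138244683, plus strand), the gene of the chromatin protein that binds primary microRNAs, had much the same level in both genotypes. In CPM it was 248, 291 and 279 in KO176, KO177 and KO209, and 247, 277 and 283 in WT178, WT180 and WT207. The groups overlapped almost fully, each with 1 sample near the lowest value and 2 above it. The log2 fold change was 0.02 (SE 0.12, 95% interval -0.24 to 0.29, adjusted p = 0.969 from edgeR), so the interval reached from 0.844-fold to 1.22-fold. None of the exon bases of *Hp1bp3* overlapped with another gene.

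*Drosha* (ENSMUSG00000022191.16, chr15:12824815-12935291, plus strand), the nuclease of the Microprocessor, was at 32.7, 25.2 and 30.2 CPM in KO176, KO177 and KO209, and at 23.9, 26.5 and 26.5 CPM in WT178, WT180 and WT207. KO176 and KO209 were above all *Ythdc1*+/+ samples and KO177 lay among them. The log2 fold change was 0.20 (SE 0.13, 95% interval -0.09 to 0.49, adjusted p = 0.671 from edgeR). *Dgcr8*, its RNA-binding partner, was at 27.2, 29.3 and 29.9 CPM in the *Ythdc1*Δ/Δ samples and at 26.0, 25.6 and 27.9 CPM in the *Ythdc1*+/+ samples. Here KO176 was below WT207 and the other samples were in the order of their genotype. The log2 fold change was 0.12 (SE 0.11, 95% interval -0.13 to 0.37, adjusted p = 0.772 from edgeR). Of the exon bases of *Dgcr8*, 17.1% were shared with other genes, 825 of them with *Trmt2a* on the opposite strand, and reads there were left out because strand was not used.

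Within a sample the log2 ratio of *Dgcr8* to *Drosha* in FPKM was -0.64, -0.16 and -0.39 in KO176, KO177 and KO209, and -0.25, -0.42 and -0.30 in WT178, WT180 and WT207. The shared exon bases of *Dgcr8* lower this ratio in all samples, so its level is not that of the 2 mRNAs. The lowest and the highest value were both of *Ythdc1*Δ/Δ samples, and all *Ythdc1*+/+ values lay between them. The means were -0.40 ± 0.24 and -0.32 ± 0.09 (SD, n = 3), and a 2-sided exact permutation test gave p = 0.8 (adjusted p = 0.8 over 5 ratios; 3 samples against 3 cannot give less than 0.1). The log2 ratio of *Hp1bp3* to *Drosha* was 2.42, 3.02 and 2.70 in the *Ythdc1*Δ/Δ samples and 2.86, 2.88 and 2.91 in the *Ythdc1*+/+ samples (exact permutation test, p = 0.4, adjusted p = 0.75). The *Ythdc1*+/+ values were close together (SD 0.02) and lay inside the range of the *Ythdc1*Δ/Δ values (SD 0.30).

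The helicases that assist the Microprocessor differed widely in level, and neither passed the test. *Ddx5* (ENSMUSG00000020719.14, chr11:106780355-106789185, minus strand) was at 2284, 2199 and 2186 CPM in KO176, KO177 and KO209, and at 2353, 1972 and 2069 CPM in WT178, WT180 and WT207. The *Ythdc1*Δ/Δ samples lay inside the range of the *Ythdc1*+/+ samples, with a log2 fold change of 0.06 (SE 0.13, 95% interval -0.24 to 0.36, adjusted p = 0.913 from edgeR). *Ddx17* (ENSMUSG00000055065.7, chr15:79527736-79546741, minus strand) was at 24.1, 32.4 and 37.5 CPM and at 30.7, 31.4 and 37.1 CPM in the same order. KO176 was the lowest sample and the other 5 were intermixed, with a log2 fold change of -0.08 (SE 0.16, 95% interval -0.44 to 0.29, adjusted p = 0.910 from edgeR). The log2 ratio of *Ddx17* to *Ddx5* in FPKM was -6.97, -6.49 and -6.27 in the *Ythdc1*Δ/Δ samples and -6.66, -6.38 and -6.21 in the others (exact permutation test, p = 0.6, adjusted p = 0.75).

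**Figure D3:**
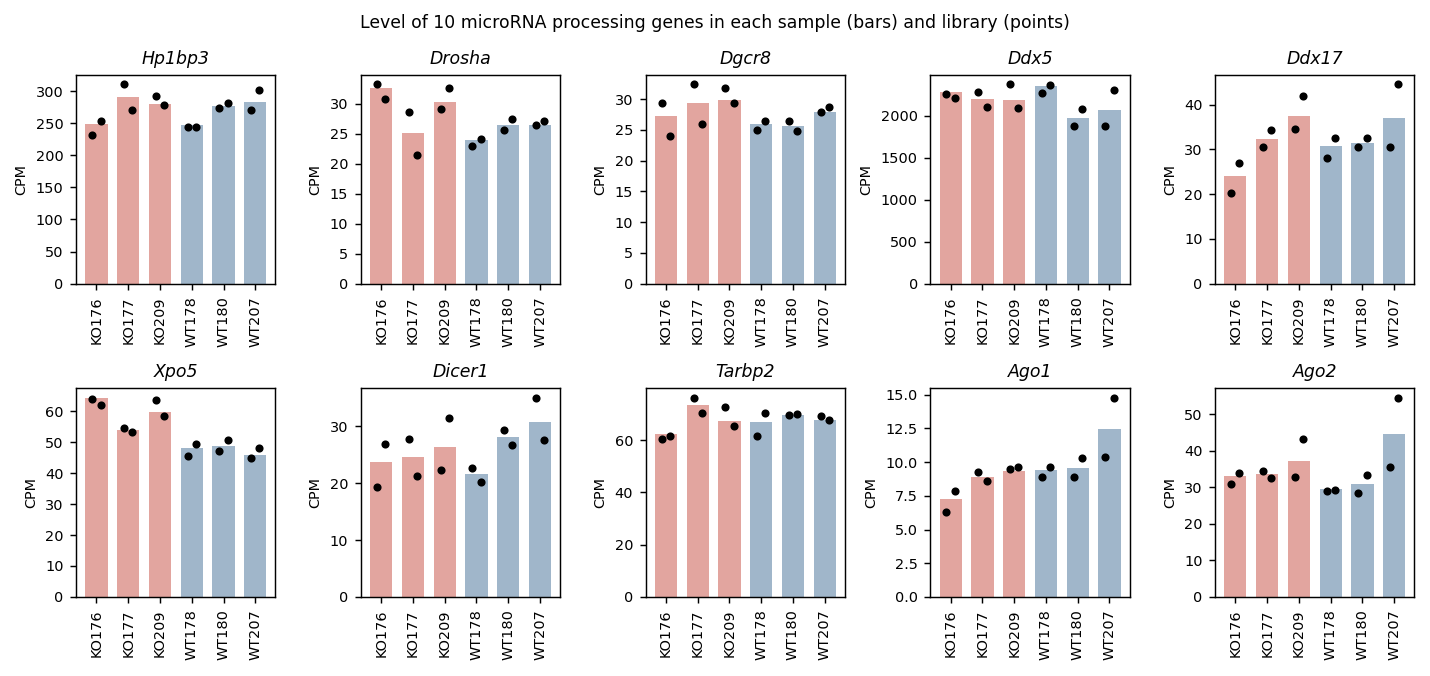
CPM (vertical axis, 1 panel per gene) in the 6 summed samples (horizontal axis; bars, red for *Ythdc1*Δ/Δ and blue for *Ythdc1*+/+) and in the 2 libraries of each (points). The bars of the genotypes do not overlap for *Xpo5* and, by a gap between 9.36 and 9.39 CPM, for *Ago1*, and the second library of WT207 is high for *Ddx17*, *Ago1* and *Ago2*.

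*Xpo5* (ENSMUSG00000067150.6, chr17:46202782-46243598, plus strand), the gene of the export receptor for hairpins, was at 64.3, 53.9 and 59.6 CPM in KO176, KO177 and KO209, and at 48.1, 48.7 and 45.8 CPM in WT178, WT180 and WT207. All 3 *Ythdc1*Δ/Δ samples were above all 3 *Ythdc1*+/+ samples. The libraries did not overlap either, at 53.2 to 63.8 against 44.8 to 50.7 CPM, but the 2 libraries of a number are not independent, so this adds no replicates. The log2 fold change was 0.32 (SE 0.11, 95% interval 0.07 to 0.56, a fold of 1.05 to 1.48), with an unadjusted p of 0.0156 and an adjusted p = 0.387 from edgeR, so the difference did not pass over all genes. The unadjusted p was 0.0581 without WT207 and 0.0649 with KO176, KO177, WT178 and WT180 alone. The summed cell division genes, without TMM scaling, were at 1110, 1073 and 1246 CPM in KO176, KO177 and KO209 and at 854, 943 and 922 CPM in WT178, WT180 and WT207, and thus also did not overlap. Their part in the level of *Xpo5* was not tested.

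*Dicer1* and *Tarbp2*, which encode the cytoplasmic nuclease and its partner, overlapped between the genotypes. *Dicer1* (ENSMUSG00000041415.10, chr12:104687742-104751952, minus strand) was at 23.7, 24.6 and 26.3 CPM in KO176, KO177 and KO209, and at 21.7, 28.1 and 30.7 CPM in WT178, WT180 and WT207. The *Ythdc1*Δ/Δ samples lay inside the wider range of the *Ythdc1*+/+ samples, and the log2 fold change was -0.11 (SE 0.14, 95% interval -0.43 to 0.21, adjusted p = 0.847 from edgeR). *Tarbp2* (ENSMUSG00000023051.11, chr15:102518192-102523676, plus strand) was at 62.3, 73.5 and 67.5 CPM and at 66.8, 69.7 and 67.5 CPM in the same order. Its *Ythdc1*+/+ samples lay between KO176 and KO177, and the log2 fold change was -0.01 (SE 0.11, 95% interval -0.24 to 0.23, adjusted p = 0.993 from edgeR). The log2 ratio of *Tarbp2* to *Dicer1* in FPKM was 3.28, 3.46 and 3.24 in the *Ythdc1*Δ/Δ samples and 3.5, 3.19 and 3.02 in the others (exact permutation test, p = 0.6, adjusted p = 0.75).

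Of the Argonaute genes, *Ago2*, which encodes the Argonaute that cuts target RNA, was level and *Ago1* was lower in *Ythdc1*Δ/Δ samples without passing the test. *Ago2* (ENSMUSG00000036698.11, chr15:73095844-73184935, minus strand) was at 33.2, 33.6 and 37.1 CPM in KO176, KO177 and KO209, and at 29.6, 30.8 and 44.5 CPM in WT178, WT180 and WT207. The *Ythdc1*Δ/Δ samples lay between WT180 and WT207, and the log2 fold change was -0.01 (SE 0.16, 95% interval -0.37 to 0.34, adjusted p = 0.986 from edgeR). Without WT207 it was 0.20. *Ago1* (ENSMUSG00000041530.16, chr4:126435012-126468583, minus strand) was at 7.24, 8.92 and 9.36 CPM and at 9.39, 9.55 and 12.4 CPM in the same order. The samples did not overlap, but KO209 and WT178 were nearly equal, so this separation depends on the TMM scaling. The libraries overlapped at 6.31 to 9.62 against 8.88 to 14.8 CPM. The log2 fold change was -0.30 (SE 0.17, 95% interval -0.68 to 0.09, adjusted p = 0.627 from edgeR), and -0.15 without WT207. *Ago1* had the fewest counts of the 10 genes, at 134 to 347 per library.

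*Ago3* (chr4:126331704-126429556) and *Ago4* (chr4:126489541-126533472) lie on either side of *Ago1* on chromosome 4 and on the same strand. *Ago3* was at 12.4, 15.4 and 18.1 CPM in KO176, KO177 and KO209 and at 21.1, 17 and 20.7 CPM in WT178, WT180 and WT207, and only KO209 reached into the range of *Ythdc1*+/+. Its log2 fold change was -0.36 (SE 0.17, 95% interval -0.73 to 0.01, adjusted p = 0.536 from edgeR). *Ago4* was at 3.34 ± 0.862 and 3.95 ± 0.646 CPM (SD, n = 3), with a log2 fold change of -0.24 (SE 0.23, adjusted p = 0.780 from edgeR). Neighbouring genes in the same samples are not independent observations. Of the summed FPKM of *Ago1* to *Ago4*, *Ago2* took 54.5%, 47.9% and 48.9% in KO176, KO177 and KO209 and 42.2%, 44.0% and 48.1% in WT178, WT180 and WT207. KO177 was just below WT207 and the other samples were apart, and the means of 50.4% ± 3.53 and 44.7% ± 3.02 (SD, n = 3) differed by 5.66 percentage points (2-sided exact permutation test, p = 0.2, adjusted p = 0.75 over 5 ratios).

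**Figure D4:**
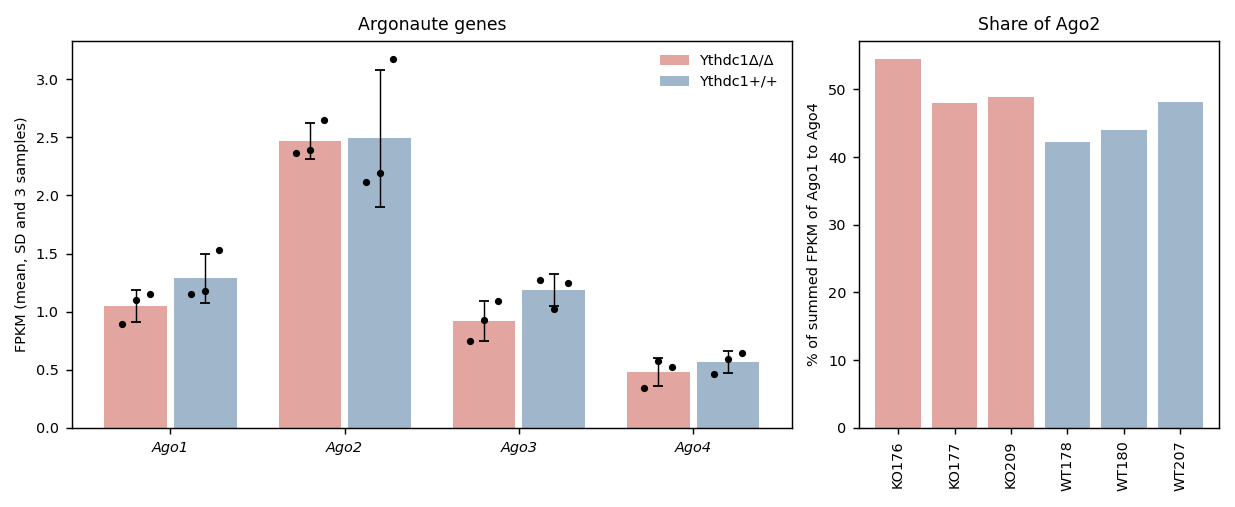
Left, FPKM (vertical axis) of the 4 Argonaute genes (horizontal axis) as means (bars), SD (error bars) and 3 samples (points) per genotype, red for *Ythdc1*Δ/Δ and blue for *Ythdc1*+/+. Right, the share of *Ago2* in the summed FPKM of *Ago1* to *Ago4* in each sample, from 47.9% to 54.5% for *Ythdc1*Δ/Δ, against 42.2% to 48.1% for *Ythdc1*+/+ samples.

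The error behind these values differed from gene to gene. Between the 2 libraries of a number the SD of log2 CPM was lowest for *Xpo5* (0.07) and *Tarbp2* (0.08) and highest for *Dicer1* (0.26), *Ddx17* (0.23) and *Ago2* (0.23). Counting error alone, as the square root of counts, would give 0.04 for *Xpo5*, 0.06 for *Dicer1*, 0.05 for *Ddx17* and 0.05 for *Ago2*, and was below the observed value for all 10 genes. Between numbers of a genotype the SD, taken on the mean of the 2 libraries, was 0.08 (*Ddx5*) to 0.28 (*Ddx17*). It was above that between libraries for 7 of the 10, the exceptions being *Dgcr8*, *Ddx5* and *Dicer1*. A mean of 2 libraries varies less than a single library, so the SDs are not on equal terms. This count therefore does not show for which genes the numbers differ. For *Xpo5* the SD between numbers was 0.09, against the difference of 0.32 between the genotypes.

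**Figure D5:**
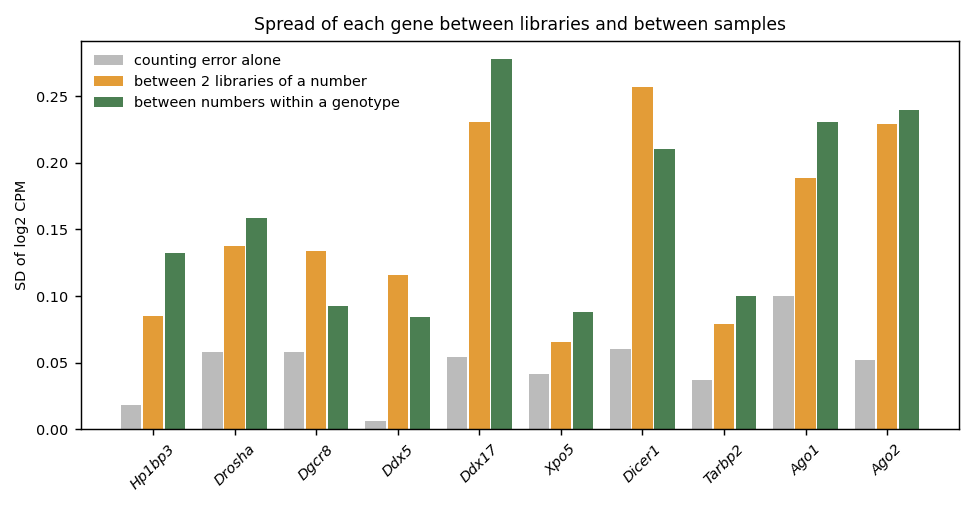
SD of log2 CPM (vertical axis) of each gene (horizontal axis) from counting error alone (grey), between the 2 libraries of a number (orange) and between numbers within a genotype (green). The green bars are for means of the 2 libraries and the others for single libraries. The orange bars are 0.07 for *Xpo5* and 0.26 for *Dicer1*, and every orange bar is above the grey one.

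The title numbers fall into a lower range (KO176, KO177, WT178 and WT180) and a higher one (KO209 and WT207), and the labels give no batch. KO209 and WT207 were each the highest sample of their genotype for 5 of the 10 genes, *Dgcr8*, *Ddx17*, *Dicer1*, *Ago1* and *Ago2*, against 20.7% of all tested genes. *Dicer1*, for example, was at 26.3 CPM in KO209 and 30.7 CPM in WT207, and the other samples were at 21.7 to 28.1 CPM. The genes were not chosen for this, but the comparison was chosen after their values were seen, and it has no test. With a term for the range of numbers, *Xpo5* had a log2 fold change of 0.32 and *Ago1* of -0.29, with adjusted p = 0.204 and 0.386 from edgeR. The pair KO209 and WT207 is 1 sample against 1 and allows no test.

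Across the 12 libraries the levels of *Hp1bp3*, *Drosha* and *Dgcr8* were each set beside 9121 other genes, by Pearson's r of log2 CPM, as a description. The genes compared had a mean of at least 10 CPM, which left out *Ago1*. The libraries share genotype, title number and depth. Closest to *Hp1bp3* were *Wdr6* (r = 0.91), *Flii* (r = 0.90) and *Stk11ip* (r = 0.88). Closest to *Drosha* were *Fbxw11* (r = 0.88), *Acsl1* (r = 0.88) and *Eif4g2* (r = 0.86), and closest to *Dgcr8* were *Mrrf* (r = 0.88), *Stam* (r = 0.86) and *Etaa1* (r = 0.86). None of the 10 was among these closest genes, where *Ago1* could not appear, and *Drosha* and *Dgcr8* correlated at r = 0.43 with each other. Among the 10 the highest r was that of *Ddx17* with *Ago1* (0.84) and the lowest that of *Ddx5* with *Dicer1* (-0.67).

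A wider list of 51 microRNA pathway genes held 49 that could be tested, and 0 of them had an adjusted p under 0.05 from edgeR. At an unadjusted p under 0.05 there were 2, both higher, against 9.48% of all tested genes. Of the 49, 34 were higher and 15 lower, with a median log2 fold change of 0.06, where all tested genes split into 8918 higher and 9316 lower with a median of -0.01. The samples did not overlap for 7 higher genes and 1 lower gene of the 49, against 16.3% of all tested genes. Without KO176 only 26 of 49 were higher, with a median of 0.01. *Lin28b*, which blocks let-7 processing, and *Trim71*, a let-7 target, had 71 and 33 counts over 12 libraries and were not tested. Of the 18 genes of nuclear processing 14 were higher, with a median of 0.14. Of the 3 tested genes of export and dicing 2 were higher (median 0.25), of 18 in the silencing complex 11 (median 0.02), and of 10 in tailing and turnover 7 (median 0.04). The median of the 3 is the value of 1 gene. The other higher gene of the 3 was near the floor, at 0.249 CPM in *Ythdc1*Δ/Δ against 0.205 CPM in *Ythdc1*+/+ samples. In nuclear processing, *Hnrnpa1*, whose protein binds the loops of some primary microRNAs, was at 655, 576 and 521 CPM in KO176, KO177 and KO209 and at 462, 460 and 421 CPM in WT178, WT180 and WT207. Its samples did not overlap, with a log2 fold change of 0.38 (unadjusted p = 0.0138, adjusted p = 0.370 from edgeR), and its reads can be shared with processed pseudogenes. *Ncbp1*, which encodes the large cap-binding subunit, was at 128, 114 and 105 CPM against 100, 75.7 and 91.7 CPM, without overlap, and had a log2 fold change of 0.37 (unadjusted p = 0.0192, adjusted p = 0.410 from edgeR). Small unadjusted p-values that missed 0.05 were those of *Snd1* (log2 fold change 0.35), which encodes a nuclease of edited RNA, *Ago3* (-0.36) and *Khsrp* (0.43), whose protein binds let-7 precursors.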

How the data were processed

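The authors deposited 1 table of raw counts, in read pairs for each gene and library, for 12 libraries. Per the file headers it was made with featureCounts 2.0.1 on GENCODE vM23 genes of mm10, without strand and without reads that fall on several genes, so shared exon bases lower a gene's count. The study's methods name Hisat2 for alignment. The counts of the 2 libraries of a title number were summed, to 42098649 to 48095239 counts per sample. Genes were filtered (filterByExpr, minimum count 10, minimum total 15), scaled by TMM and tested with edgeR 4.0.16 in R 4.3.3 (quasi-likelihood, robust, Benjamini-Hochberg over 18234 genes). Standard errors come from the F statistic. FPKM used the exon length in the table. Ratios were tested by an exact permutation test in scipy, over 5 ratios. The fit was tested on simulated data.

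Genes were named by rule: the 10 genes, *Ythdc1*, any called gene of the wider list and its 6 smallest p-values (1 of these genes is not reported here), and 3 genes closest to each of *Hp1bp3*, *Drosha* and *Dgcr8*. *Ago4* enters through a ratio. The genes, lists and alternatives were chosen with earlier results of these data known. Alternatives were other treatments of the 2 libraries, a term for the range of numbers, other scalings, filters and tools (limma 3.58.1, DESeq2 1.42.0), and each sample left out.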

Additional observations from a re-analysis of the deposited data

Results flagged for a closer look

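Each genotype has 6 libraries, and for each of the 10 genes the highest and the lowest library were compared with the others by Dixon's ratio at its 95% critical value. In 5 of 20 groups of libraries 1 value stood apart, where chance gives about 1 in 20, and the 2 libraries of a number are not independent. In *Ythdc1*+/+ the second library of WT207 was highest for *Ddx17* (44.5 CPM), *Ago1* (14.8 CPM) and *Ago2* (54.5 CPM). The first library of WT207 held 30.4, 10.4 and 35.5 CPM of the same genes. In *Ythdc1*Δ/Δ the second library of KO209 was highest for *Ago2* (43.3 CPM, against 32.7 CPM in its first library). The first library of WT178 was lowest for *Tarbp2* (61.6 CPM, against 70.2 CPM in its second).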

How the results depend on the processing

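All 10 log2 fold changes were recomputed under 17 alternatives. *Drosha* (0.12 to 0.29), *Dgcr8* (0.089 to 0.17), *Ddx5* (0.0025 without WT180 to 0.14 without WT178) and *Xpo5* (0.26 to 0.38) stayed above 0, and *Dicer1* (-0.24 without WT178 to -0.00098 without WT207) and *Ago1* (-0.37 to -0.15) below 0. With 1 sample left out, *Hp1bp3* ranged from -0.034 (without WT178) to 0.092, *Ddx17* from -0.23 to 0.087 (without KO176), *Tarbp2* from -0.069 to 0.057 (without KO176) and *Ago2* from -0.12 to 0.20 (without WT207). The sign also turned for *Hp1bp3* without KO177, *Ddx17* without WT207, *Tarbp2* without WT180 and *Ago2* without KO176 or KO177. *Tarbp2* also turned, to 0.0018 with RLE scaling, 0.0018 with DESeq2 and 0.0021 without a filter, and *Ago2* to 0.014 with voomLmFit, 0.0068 with the number-range term and 0.14 with KO176, KO177, WT178 and WT180 alone. The adjusted p of *Xpo5* ranged from 0.0205 to 0.808, and 15 of 17 alternatives kept its unadjusted p under 0.05.

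With 12 libraries as separate samples 1 of the 10, *Xpo5* (log2 fold change 0.32), was called, and also with the library digit as a replicate block (0.32, adjusted p = 0.0263 from edgeR). The digit is not shown to mark a batch, and both settings take libraries of 1 number as independent. At an unadjusted p under 0.05, 0 of the 10 remained with those 4 samples alone, and 0 to 1 with 1 sample left out. Of the wider list, 2 genes (*Hnrnpa1*, *Srsf3*) were called with separate libraries and 1 with the replicate block. At an unadjusted p under 0.05 the wider list had 11 with separate libraries, 10 with the replicate block, 8 with voomLmFit, 7 with the number-range term, 7 with those 4 samples, 5 with upper quartile scaling and 6 without a filter, and 1 to 11 with 1 sample left out. The lowest and highest of these were without WT207 and without KO209. Calls over all genes, 25 as reported, were 751 with separate libraries, 717 with the replicate block, 131 with voomLmFit, 84 with the number-range term, 16 with upper quartile scaling, 217 with DESeq2, 15 with edgeR's legacy option, 73 without a filter and 3 with at least 1 CPM in 3 samples, and 1 (without WT178) to 81 (without KO209) with 1 sample left out. The cause was not tested. With 1 sample left out, the genotype difference in log2 ratio ranged from -0.19 to 0.05 for *Dgcr8* to *Drosha*, -0.31 to 0.037 for *Ddx17* to *Ddx5*, -0.023 to 0.22 for *Tarbp2* to *Dicer1* and -0.33 to -0.022 for *Hp1bp3* to *Drosha*, and that of the *Ago2* share from 3.64 to 7.32 percentage points. The first 2 turned positive without KO176 and the third negative without WT207. With 3 samples against 3 the intervals allow differences of up to 0.24 to 0.68 on the log2 scale.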
